A study of Mus musculus with 8 samples.

Results

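The genes that build epithelial cell-cell junctions were followed through 8 RNA-seq libraries of mouse pancreatic ductal adenocarcinoma (PDAC) cells. They were taken by name as all claudins, desmogleins, desmocollins, plakophilins, zonula occludens genes (*Tjp*) and *Marveld* genes, with *Cdh1*, *Cdh2*, *Ctnna1*, *Ctnnb1*, *Ctnnd1*, *Ocln*, *F11r*, *Jup*, *Dsp*, *Lsr*, *Epcam* and *Cgn*. This gave 66 of the 53465 genes of the table, and the 33 with at least 10 counts in at least 2 libraries were called detected. Both lines used, B73 and B87, go back to 1 primary tumor each of KC-shSmad4 mice. In these mice Cre is driven by *Ptf1a* in the pancreas, and a hairpin that silences *Smad4* is made as long as doxycycline (Dox) is given. Smad4 off means culture with Dox, and Smad4 on means 5 days without it. Each state was then treated for 24 h with 100 pM TGFβ1 or with 2.5 µM SB505124, which blocks the kinase of the type I TGFβ receptor, and this gave 4 groups of 2 libraries, 1 from each line. All groups shared this background and the hairpin cassette, no library came from cells without either compound, and a Smad4-on library also differed from its Smad4-off partner by the absence of Dox.

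Tight junctions seal the space between neighbouring epithelial cells. Their membrane strands are made of claudins, which set which ions and solutes pass, together with occludin (*Ocln*), tricellulin (*Marveld2*) and related MARVEL proteins, and they are tied to actin by the ZO proteins (such as *Tjp1* and *Tjp3*) and cingulin (*Cgn*). Adherens junctions hold cells together through a classical cadherin, E-cadherin (*Cdh1*) in epithelia or N-cadherin (*Cdh2*) in mesenchymal and neural cells, bound inside the cell to the catenins. Desmosomes join desmogleins and desmocollins to keratin filaments through plakoglobin (*Jup*), plakophilins (*Pkp1* to *Pkp4*) and desmoplakin (*Dsp*). Loss of E-cadherin and of tight junction proteins accompanies the epithelial-mesenchymal transition (EMT), which TGFβ is known to drive in pancreatic cancer cells.

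Totals ran from 18389235 to 23440550 counts per library, so that 3 counts, the smallest level taken as detectable, were 0.125 to 0.162 CPM (counts scaled to library size, with TMM factors). *Smad4* itself was at 33.7 to 35.5 CPM in the 4 Smad4-off libraries and at 97.4 to 117 CPM in the 4 Smad4-on libraries, as labelled. All 7 ductal markers checked were detected, while all 5 islet markers and the acinar genes *Cpa1* and *Ptf1a* were at 0 in every library. Of the other lists, 1 of 5 acinar, 3 of 5 fibroblast, 2 of 4 endothelial and 1 of 6 immune markers reached the detection rule.

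The detected genes were all 5 adherens junction genes, 9 of 35 claudins, 2 of 9 desmosomal cadherins, all 6 desmosome plaque genes, all 7 of the other tight junction membrane genes and all 4 tight junction plaque genes. Of the 33 genes below detection, 21 had no count in any library, among them *Cldn5*, *Cldn8*, *Dsc1*, *Dsg3* and all 4 *Cldn34b* genes. The other 12 were *Cldn7*, *Cldn9*, *Cldn10*, *Cldn11*, *Cldn14*, *Cldn15*, *Cldn16*, *Cldn17*, *Cldn19*, *Cldn20*, *Dsc3* and *Dsg4*. Just outside the rule, *Cldn9* reached 21 counts in 1 library and at most 7 in the others, and *Cldn7* reached 14 and otherwise at most 9. Just inside it, *Epcam* had 3 to 39 counts and *Cldn23* 1 to 37. All 33 detected genes also passed the filter of the test. For 6 of them (*Cldn3*, *Cldn4*, *Cldn23*, *Cldn34c1*, *Epcam* and *Marveld3*) every library of some group, treatment or line had fewer than 10 counts, so these entered the test through the libraries in which they were higher.

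Per kilobase of transcript, 2 of the catenin genes led, *Ctnna1* and *Ctnnb1*, while *Ctnnd1* ranked 16 in B73 and 14 in B87. The length used for *Ctnna1* was 3698 bases, whereas its merged annotated exons span 6425, so its place above *Ctnnb1* depends on that choice. *Ctnna1* (α-catenin) averaged 263 ± 23.3 CPM per kb in B73 and 238 ± 7.86 in B87 (SD over 4 libraries of a line), and *Ctnnb1* (β-catenin) 217 ± 19.7 and 159 ± 29.3. *Tjp1*, *F11r* (the adhesion protein JAM-A) and *Pkp4* were among the 8 highest in both lines, at 36.2 to 73.2 CPM per kb. Of the remaining genes, some had like ranks in the lines, such as *Cdh2* at 9 in both, and others did not. *Cldn18* ranked 3 of 33 in B87, at 62.0 ± 14.8, and 32 in B73, at 0.0891 ± 0.0489, whereas *Cdh1* ranked 5 in B73 and 11 in B87.

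**Figure D1:**
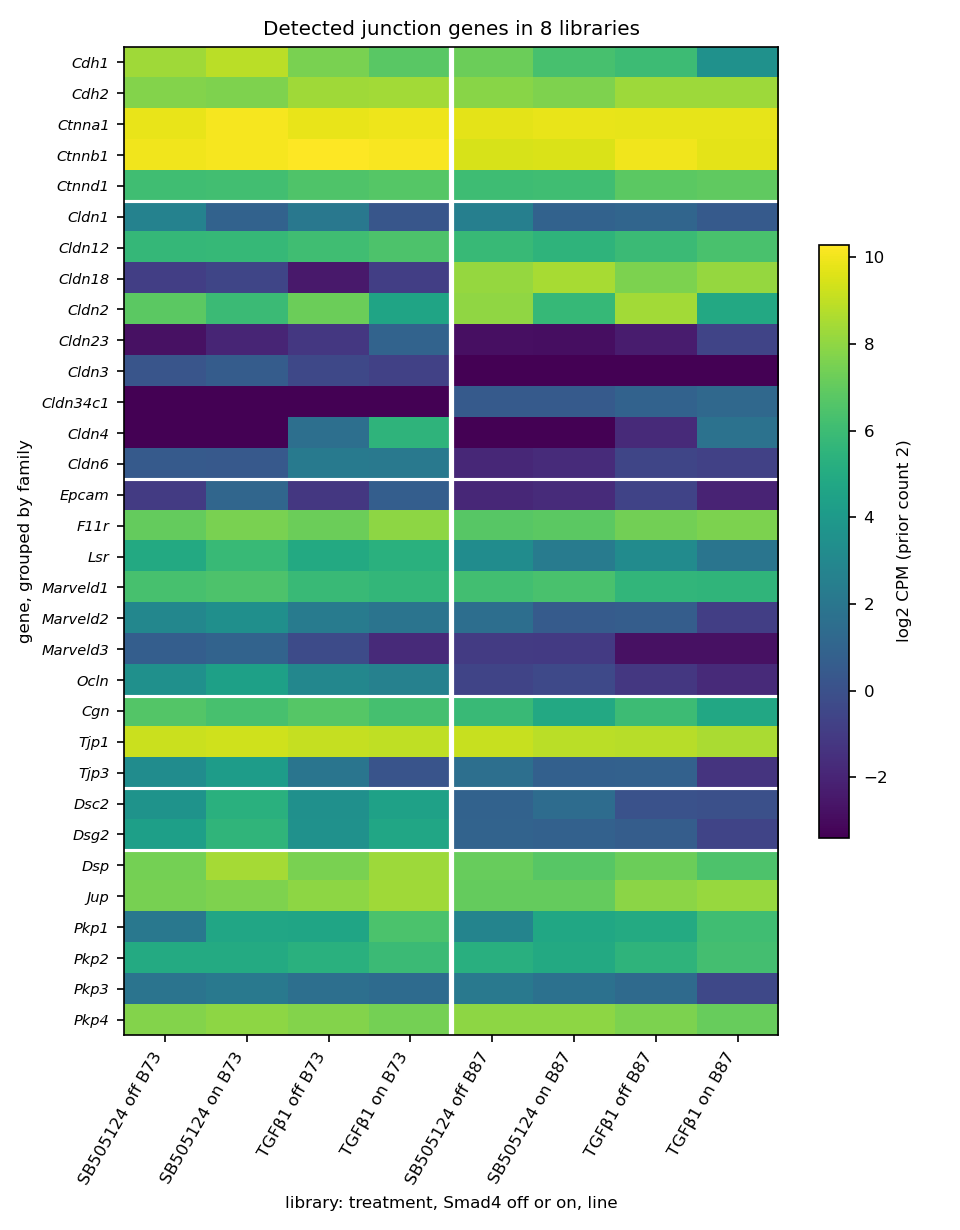
Level of detected junction genes (y axis, grouped by family) in the 8 libraries (x axis, B73 left and B87 right of the white line), as log2 CPM with a prior count of 2. *Cldn18*, *Cldn3* and *Cldn34c1* change between the lines, *Cdh2* hardly does, and *Cldn4* is dark in all 4 SB505124 libraries.

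The promoters of *Cldn4*, *Ocln* and *Tjp3* are shown because these genes changed with TGFβ1 and hold the E2-box, the hexamer read by the EMT repressors of the SNAI and ZEB families, and that of *Cldn2* because it changed with *Smad4* and has none. Sequences are from RefSeq (GRCm38.p6), on the gene's strand, from 250 bases before to 50 bases after the annotated start, with CAGGTG or its other strand CACCTG in capitals. Where a gene has several starts, 1 is shown.

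*Cldn4* (chr5:134946885-134947184, minus strand): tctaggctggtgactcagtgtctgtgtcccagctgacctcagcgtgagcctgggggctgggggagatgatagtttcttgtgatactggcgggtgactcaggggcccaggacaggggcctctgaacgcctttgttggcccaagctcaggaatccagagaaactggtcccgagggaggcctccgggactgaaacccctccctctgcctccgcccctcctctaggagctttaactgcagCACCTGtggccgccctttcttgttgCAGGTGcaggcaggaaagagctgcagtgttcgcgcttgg

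*Ocln* (chr13:100552449-100552748, minus strand): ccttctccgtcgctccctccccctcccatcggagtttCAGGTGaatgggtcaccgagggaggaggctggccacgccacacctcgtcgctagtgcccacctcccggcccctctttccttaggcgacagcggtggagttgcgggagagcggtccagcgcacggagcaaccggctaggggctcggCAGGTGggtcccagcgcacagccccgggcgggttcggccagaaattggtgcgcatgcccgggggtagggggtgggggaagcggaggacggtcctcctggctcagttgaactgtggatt

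*Tjp3* (chr10:81291532-81291831, minus strand): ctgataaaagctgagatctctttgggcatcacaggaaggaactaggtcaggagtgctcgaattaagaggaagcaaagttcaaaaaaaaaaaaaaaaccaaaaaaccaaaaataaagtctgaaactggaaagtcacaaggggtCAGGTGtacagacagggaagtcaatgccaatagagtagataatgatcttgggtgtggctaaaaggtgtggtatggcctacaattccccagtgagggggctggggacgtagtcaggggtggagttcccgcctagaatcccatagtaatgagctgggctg

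*Cldn2* (chrX:139800558-139800857, plus strand): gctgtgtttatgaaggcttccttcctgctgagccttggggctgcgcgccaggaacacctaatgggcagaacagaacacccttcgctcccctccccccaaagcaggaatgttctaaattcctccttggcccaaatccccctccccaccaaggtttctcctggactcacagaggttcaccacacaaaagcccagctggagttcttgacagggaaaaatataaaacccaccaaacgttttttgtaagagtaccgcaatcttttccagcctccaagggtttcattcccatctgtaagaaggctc

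Of the 33 detected genes, 22 matched 31 RefSeq promoters, and 14 of the 31 (45.2%, from 11 genes) held an E2-box on either strand, against 20.2% of all 32851 mouse promoters of the same length. Promoters of 1 gene can overlap, and in *Ocln* and *Marveld2* the same hexamer was counted in both promoters. The genes without a matched promoter were not searched, among them *Cdh1*, *Cdh2*, *Cldn23*, *Marveld3*, *Pkp1* and *Pkp2*, so nothing is known here of their E2-boxes. In *Cldn4* the hexamers began 14 bases before and at base 12 after the start, in *Ocln* 213 and 68 bases before it, and in *Tjp3* 108 bases before it. The other 8 searched genes with an E2-box were *Cldn3*, *Cldn6*, *Dsp*, *Epcam*, *F11r*, *Lsr*, *Marveld2* and *Pkp4*. Of these, *Cldn6* was called higher and *Marveld2* lower with TGFβ1 in Smad4-on cells, and the other 6 were not called. AACNNGTT, the core read by the epithelial GRHL factors, was in 1 of the 31 promoters (3.23%, *Cgn*) against 4.2% of all. These matches describe letters and no binding was measured.

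Differences were tested with edgeR's quasi-likelihood F-test over 14301 genes, with the 4 groups and the line as terms. Calls needed more than a 2-fold change and, after Benjamini-Hochberg adjustment, a p below 0.05, and fold changes are given as log2 values with an approximate SE. The comparisons share libraries, so their results are set side by side and not correlated. Every TGFβ1 effect given is a difference from SB505124, and it cannot be assigned to 1 of the 2 compounds. Every *Smad4* effect given is also a difference between cells without and with Dox, and the 2 cannot be told apart. With 1 library per line in each group, p-values of the Smad4 and treatment comparisons rest on how unlike the 2 lines' changes were. The constant difference between the lines is taken out by the line term. For B87 against B73 the 4 conditions of a line stand in for replicates. For a difference of the *Smad4* effect between lines the 2 treatments do so, and for one of the TGFβ1 effect the 2 Smad4 states, with 2 residual degrees of freedom. Those p-values therefore do not measure the spread between tumors. With no replicate block, that is without the line as a term, the differences between lines enter the error and few of these genes passed, as given for each comparison. Counts of genes by DESeq2 or by an unadjusted p are given without the share over all genes, and no excess is read from them.

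TGFβ1 against SB505124 in Smad4-on cells moved more junction genes than any of the other Smad4 or treatment comparisons. *Cdh1*, *Ocln*, *Marveld2*, *Marveld3*, *Tjp3* and *Cldn2* fell, while *Cldn4*, *Cldn6*, *Cldn23*, *Pkp1* and *Pkp2* rose. Of 33 genes, 5 were called higher, where 5.62% of all tested genes were, and 6 lower, where 8.31% were. Of these, *Cldn4*, *Cldn23* and *Marveld3* had entered the test through the libraries in which they were higher. At an adjusted p under 0.05 and any fold, 10 were higher (15.6% of all genes) and 8 lower (17.6%). The median log2 fold change of the 33 genes was -0.32, and stayed there with *Cldn4* at its lower bound, beside -0.02 over all genes, and for 31 of the 33 both lines had the same sign. With no replicate block, *Pkp1* and *Pkp2* alone were called, where 7.24% of all genes were called in either direction.

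In Smad4-off cells, TGFβ1 raised *Cldn4*, *Cldn6* and *Pkp1* past the threshold. These were 3 of 33 genes called higher, beside 3.11% of all genes. Of the 3, *Cldn4* had entered the test through the libraries in which it was higher. Of the 33 genes, none was called lower, beside 2.82% of all genes, although 5 had an unadjusted edgeR p under 0.05 in that direction. DESeq2 with the line also called none lower. With no replicate block *Pkp1* alone passed, beside 1.17% of all genes. The median log2 fold change was 0.06, beside -0.02 over all genes. *Cdh1*, *Ocln*, *Marveld2*, *Marveld3* and *Tjp3* had values below 0 here too, from -0.59 to -1.41, with edgeR adjusted p-values of 0.0884 to 0.242.

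Restoring *Smad4* under TGFβ1 lowered *Cldn2* and raised *Cldn4*, *Cldn23* and *Pkp1*. That was 3 genes higher, beside 1.31% of all genes, and 1 lower, beside 1.8%. Of the 3, *Cldn4* and *Cldn23* had entered the test through the libraries in which they were higher. With at least 10 counts required in every library, 1 was called higher. The median of the 33 genes was -0.08 and that of all genes -0.01. With no replicate block none of them was called, beside 0.252% of all genes. DESeq2 with the line called 1 higher and 2 lower, and 15 had an unadjusted edgeR p under 0.05, with no share of all genes for either. Under SB505124 *Pkp1* was the gene that rose, 1 of 33 beside 0.636% of all genes. None was called lower, beside 0.455%, with 3 at an unadjusted edgeR p under 0.05 in that direction and 2 called by DESeq2 with the line (*Cldn1* and *Cldn2*). With no replicate block none was called, beside 0.014% of all genes.

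The difference of the *Smad4* effect between TGFβ1 and SB505124 was not called for any of the 33 genes, where edgeR called 0.0559% of all genes higher and 0.133% lower. Of the 33, 8 had an unadjusted p under 0.05, and DESeq2 with the line called none. It gave *Pkp2* an adjusted p of 0.0168, where the edgeR value of 0.81 was under 2-fold. For *Cldn4* the test could not decide, since this gene had no count under SB505124. *Cldn23* had at most 3 counts there, and its value was 1.47 ± 1.17. A junction gene called under TGFβ1 and not under SB505124 was therefore not shown to respond differently in the presence of TGFβ1.

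**Figure D2:**
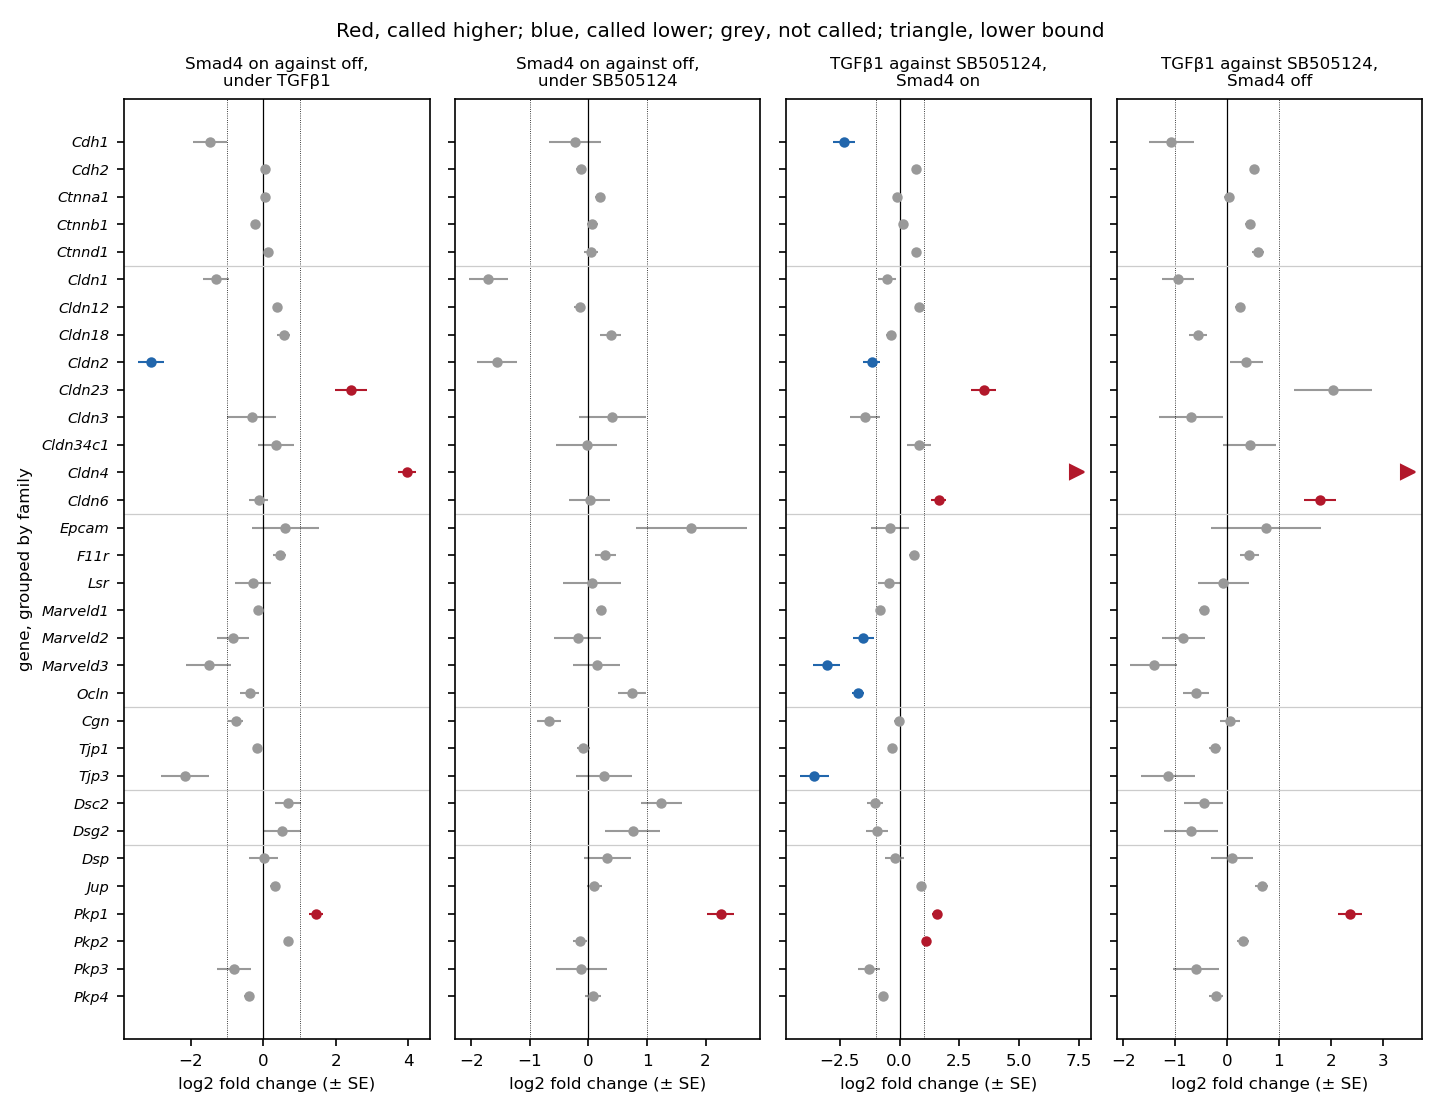
Log2 fold change (x axis, with SE) of detected junction genes (y axis, by family) in the 4 comparisons of *Smad4* state or treatment, red where called higher, blue where called lower and grey otherwise, with dotted lines at 2-fold. Triangles mark *Cldn4* at its lower bound, and *Cldn4* and *Cldn23* are left out under SB505124, where they had at most 3 counts in any library. The 6 falls past the threshold in Smad4-on cells and the *Pkp1* rise in all 4 panels stand out.

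E-cadherin mRNA was lower with TGFβ1 than with SB505124 in every matched pair. *Cdh1* (chromosome 8, 106603351 to 106670246, plus strand) was at 325 CPM in Smad4-off and 469 CPM in Smad4-on cells of B73 under SB505124, and at 186 and 109 CPM under TGFβ1. In B87 the 4 values were 149, 80.5, 64.0 and 11.5 CPM in the same order. Each line thus had its lowest level with *Smad4* on and TGFβ1, but the groups overlapped in both treatment comparisons. In Smad4-on cells the log2 fold change with TGFβ1 was -2.31 ± 0.46 (edgeR adjusted p = 0.00936), a fall of 4.3-fold in B73 and 7.02-fold in B87, and without the B73 Smad4-on SB505124 library it was -1.91 with an adjusted p of 0.0691. In Smad4-off cells it was -1.07 ± 0.44 (adjusted p = 0.162). The *Smad4* effect under TGFβ1 was -1.47 ± 0.46 (adjusted p = 0.111), with values 1.7-fold lower in B73 and 5.58-fold lower in B87. Under SB505124 it was -0.23 ± 0.44 (adjusted p = 0.883), and the lines differed in sign, at 1.44-fold higher in B73 and 1.85-fold lower in B87.

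N-cadherin mRNA was nearly alike in the lines and followed the treatment. *Cdh2* (chromosome 18, 16588877 to 16809246, minus strand) was at 212, 201, 228 and 202 CPM in the 4 SB505124 libraries and at 318, 333, 311 and 317 CPM in the 4 TGFβ1 libraries, so that the treatments did not overlap. The log2 fold change with TGFβ1 was 0.69 ± 0.08 in Smad4-on cells (edgeR adjusted p = 0.00111) and 0.52 ± 0.08 in Smad4-off cells (adjusted p = 0.00879), both under 2-fold. With *Smad4* on against off it was 0.05 ± 0.08 under TGFβ1 and -0.13 ± 0.08 under SB505124. Per kilobase, the ratio of *Cdh1* to *Cdh2* ran from 4.12 in Smad4-on B73 cells under SB505124 to 0.576 in the same cells under TGFβ1. In Smad4-on B87 cells it ran from 0.703 to 0.0639, and in Smad4-off cells it was 2.71 and 1.03 in B73 and 1.15 and 0.363 in B87.

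None of the catenins was called by edgeR in the 4 comparisons. *Ctnna1* stayed between 853 and 1090 CPM, and its log2 fold changes lay between -0.11 and 0.20 in the 4 comparisons. *Ctnnb1* ran from 705 to 1250 CPM and was higher with TGFβ1 in Smad4-off cells by 0.44 ± 0.10 (edgeR adjusted p = 0.0325). *Ctnnd1* (p120 catenin) was at 66.1 to 71.4 CPM under SB505124 and at 93.1 to 123 CPM under TGFβ1, without overlap, by 0.68 ± 0.12 with and 0.60 ± 0.12 without *Smad4* (adjusted p = 0.00553 and 0.0197). Its counts are uncertain, since 61.2% of its exon bases are shared with *Gm28635* on the same strand. Of *Ctnnb1*, 15.1% of exon bases lie opposite *Ulk4*.

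**Figure D3:**
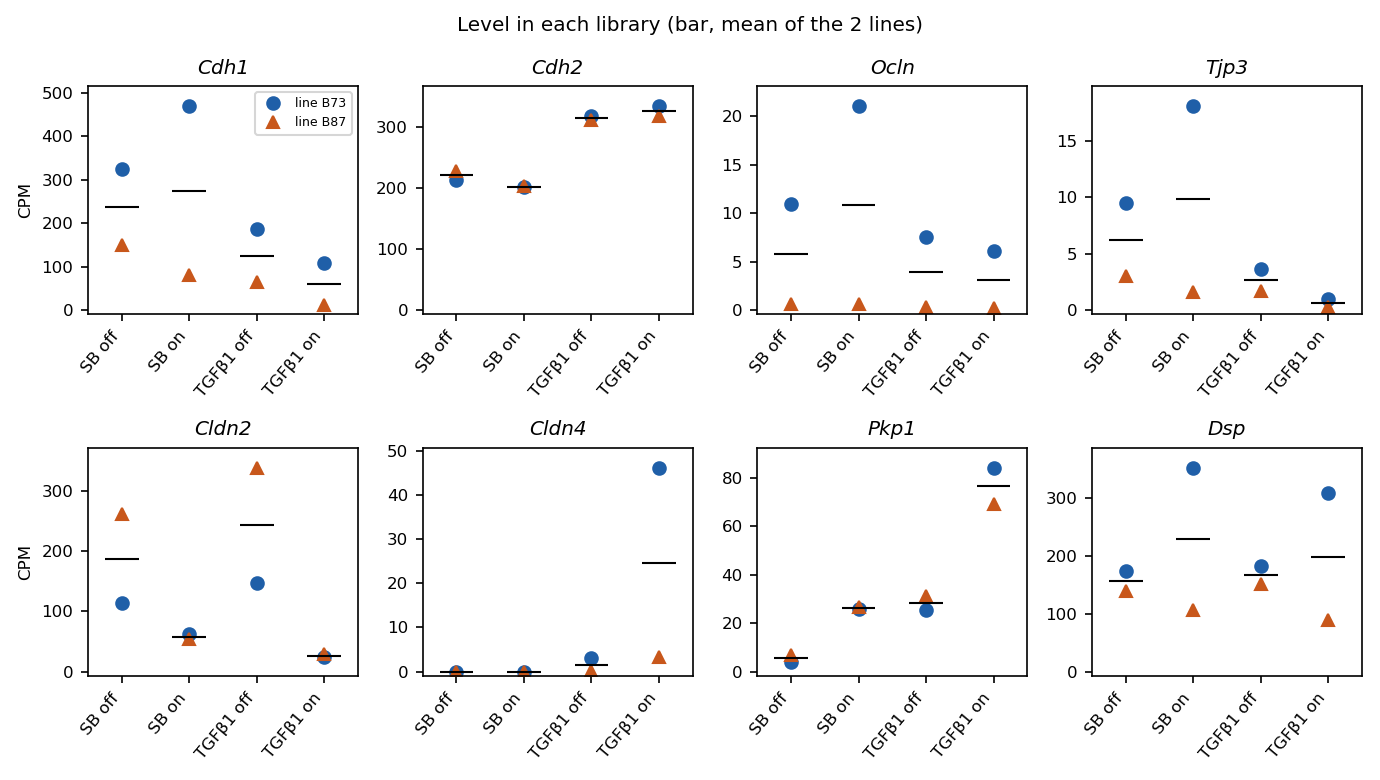
CPM in each library (y axis, from 0) for 8 genes by treatment and Smad4 state (x axis, SB standing for SB505124), with circles for B73, triangles for B87 and a bar at the mean of the lines. *Cdh1* is lowest with TGFβ1 and *Smad4* on in each line, *Cdh2* splits by treatment, and *Dsp* moves in opposite directions in the lines.

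The make-up of the claudin mRNA differed between the groups and the lines. In B73 with *Smad4* off, *Cldn2*, a claudin that forms cation pores, made up 67.5% of the summed claudin level per kilobase under SB505124 and 65.8% under TGFβ1. With *Smad4* on and TGFβ1 its share was 12.5%, and *Cldn4*, a claudin that tightens epithelia, made up 43.7%. In B87, *Cldn18*, a claudin of gastric epithelium and of pancreatic cancers, held 27.2% to 74.2%, and *Cldn2* went from 62.8% to 9.27% when *Smad4* was on under TGFβ1. The summed level was 34.0 to 67.1 CPM per kb in B73 and 93.4 to 162 in B87.

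*Cldn2* (chromosome X, 139800828 to 139811386, plus strand) was lower in all 4 Smad4-on libraries than in all 4 Smad4-off libraries. In B73 it was at 113 CPM (Smad4 off) and 61.7 CPM (Smad4 on) under SB505124 and at 147 and 24.1 CPM under TGFβ1. In B87 these levels were 262, 54.3, 338 and 28.8 CPM. Under TGFβ1 its log2 fold change with *Smad4* on was -3.10 ± 0.36 (adjusted p = 0.00609 by edgeR), by 6.08-fold in B73 and 11.7-fold in B87, and the call held whichever library was left out. Under SB505124 the log2 fold change was -1.56 ± 0.34 (adjusted p = 0.0989 by edgeR and 0.0399 by DESeq2 with the line). With TGFβ1 against SB505124, *Cldn2* was lower in Smad4-on cells (-1.17 ± 0.35, adjusted p = 0.0397 by edgeR), and in Smad4-off cells the value was 0.37 ± 0.32. The TGFβ1 call in Smad4-on cells was lost without either B73 Smad4-on library or the B87 one under TGFβ1, with log2 fold changes of -0.55 to -1.45 and adjusted p-values of 0.0745 to 0.245, and in DESeq2 with the line (adjusted p = 0.0521).

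*Cldn4* (chromosome 5, 134945119 to 134946934, minus strand) had no count in any of the 4 SB505124 libraries. Under TGFβ1 it had 69 counts in Smad4-off and 906 in Smad4-on cells of B73, and 4 and 64 in B87, or 2.96, 46.2, 0.199 and 3.26 CPM. Against a floor of 3 counts per library, the Smad4-on group was at least 173-fold higher with TGFβ1 than with SB505124 (at least 285-fold in B73 and 26.1-fold in B87). The Smad4-off group was at least 11.2-fold higher (19.7-fold in B73 and 1.51-fold in B87). edgeR adjusted p-values were 0.000215 and 0.00424. With *Smad4* on against off under TGFβ1 the count ratio was 15.6 in B73 (95% interval 12.2 to 20.3) and 16.4 in B87 (6.09 to 61.9), intervals that cover counting error only, and the log2 fold change was 3.96 ± 0.25 (adjusted p = 0.00327). DESeq2 with the line gave adjusted p-values of 0.316 for this *Smad4* effect and 0.0743 for TGFβ1 in Smad4-off cells. Without a B73 TGFβ1 library, the *Smad4* call was lost (adjusted p = 0.0641 and 0.0808). The Smad4-off call was lost without either Smad4-off B73 library (adjusted p = 0.0731 and 0.057).

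*Cldn6*, a claudin of early embryonic epithelium, was at 1.30 and 1.24 CPM in B73 under SB505124 (Smad4 off, then on) and at 4.59 and 4.29 CPM under TGFβ1. In B87 it was at 0.176 and 0.208 CPM and at 0.598 and 0.510 CPM, on 4 to 12 counts. TGFβ1 raised it by 1.64 ± 0.31 with and 1.79 ± 0.31 without *Smad4* (log2, edgeR adjusted p = 0.00774 and 0.0123), and its values with *Smad4* on against off were -0.13 ± 0.27 under TGFβ1 and 0.02 ± 0.35 under SB505124. Both calls needed the B73 libraries, since leaving out any 1 of those compared gave adjusted p-values of 0.116 to 0.158. For Smad4-off cells the same held for the B87 TGFβ1 library (adjusted p = 0.0667).

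*Cldn23* was chosen for its own sentences after its values were seen, because its mean level was under the limit set for named genes. It had 1, 3, 1 and 1 counts in the SB505124 libraries, 8 and 2 in the Smad4-off and 37 and 11 in the Smad4-on TGFβ1 libraries. The count ratio of TGFβ1 over SB505124 in Smad4-on cells was 13.0 (95% interval 4.77 to 49.7, edgeR adjusted p = 0.00266). That of *Smad4* on over off under TGFβ1 was 5.31 (2.65 to 11.8, adjusted p = 0.0238). The latter call was lost without any 1 of the 4 TGFβ1 libraries (adjusted p = 0.0914 to 0.326).

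Of the other claudins, *Cldn12* was higher in the Smad4-on TGFβ1 libraries (87.9 and 82.6 CPM) than in the 6 others (45.1 to 68.9 CPM), with a log2 fold change over SB505124 of 0.79 ± 0.10 (edgeR adjusted p = 0.00151). *Cldn1*, a core strand protein, was at 4.20 and 2.04 CPM (B73, B87) in Smad4-off and 1.12 and 1.33 CPM in Smad4-on cells under TGFβ1, and at 6.19 and 5.62 against 1.78 and 1.79 CPM under SB505124. The Smad4-on libraries were below the Smad4-off ones in both, at -1.31 ± 0.36 (adjusted p = 0.0771) and -1.71 ± 0.33 (adjusted p = 0.0678, and 0.0131 by DESeq2 with the line). *Cldn18*, *Cldn3* and *Cldn34c1* were not called in these 4 comparisons and are described with the lines.

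**Figure D4:**
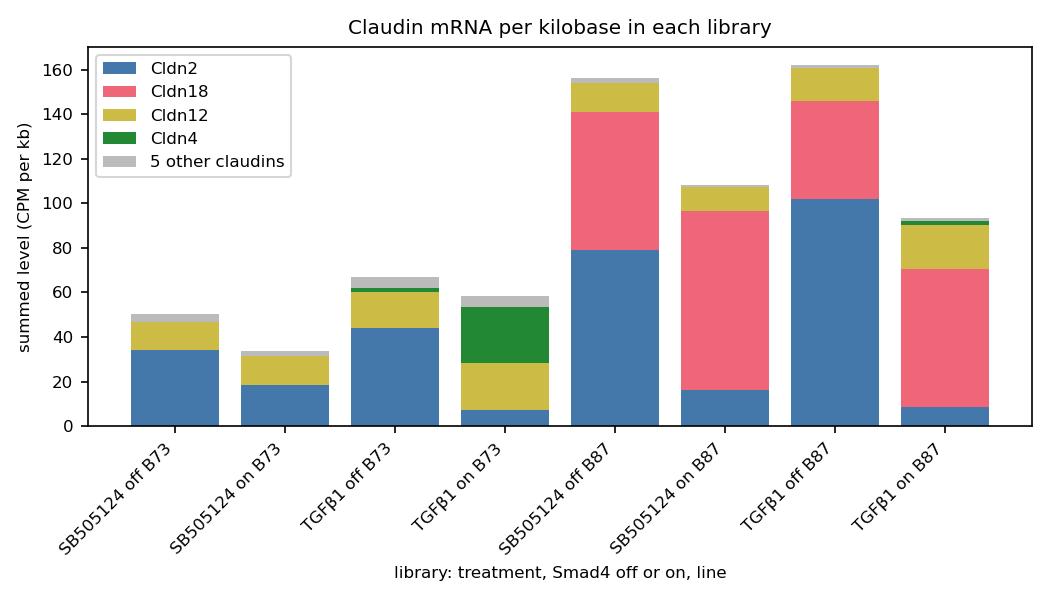
Summed claudin level in each library (bar height, CPM per kb, from 0), split by gene. In Smad4-on cells under TGFβ1 the *Cldn2* part is small in both lines, the *Cldn4* part is large in B73, and the *Cldn18* part appears in B87 alone.

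Of the other tight junction membrane genes, occludin and the MARVEL genes fell with TGFβ1 in Smad4-on cells. *Ocln* (chromosome 13, 100496507 to 100552718, minus strand) was at 10.9 CPM (Smad4 off) and 21.0 CPM (Smad4 on) in B73 under SB505124 and at 7.54 and 6.07 CPM under TGFβ1. In B87 it was at 0.571, 0.666, 0.349 and 0.204 CPM, on 4 to 16 counts. Both lines went down with TGFβ1, but every B87 library lay below every B73 library. The log2 fold change in Smad4-on cells was -1.73 ± 0.25 (edgeR adjusted p = 0.00271), and it was -1.32 and -1.96 without the B73 Smad4-on library under SB505124 or TGFβ1 (adjusted p = 0.0848 and 0.0506). In Smad4-off cells it was -0.59 ± 0.25 (adjusted p = 0.181).

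*Marveld2*, which seals the points where 3 cells meet, was at 7.59, 10.8, 4.88 and 3.57 CPM in B73 (Smad4 off and on under SB505124, then under TGFβ1) and at 2.86, 1.33, 1.44 and 0.459 CPM in B87. Its log2 fold change with TGFβ1 in Smad4-on cells was -1.51 ± 0.44 (edgeR adjusted p = 0.0368), and 5 of the 8 libraries, left out in turn, each ended the call (adjusted p = 0.0511 to 0.368, log2 fold change -0.76 to -2.16). These were the B73 Smad4-on SB505124 library and all 4 TGFβ1 libraries. *Marveld3*, named after its values were seen for the same reason as *Cldn23*, had 34 and 9 counts under SB505124 and 4 and 1 under TGFβ1 in Smad4-on B73 and B87 cells, a ratio of 7.92 (95% interval 3.15 to 25.6, adjusted p = 0.00648). This call was lost without either B73 library (adjusted p = 0.0611 and 0.132). *Marveld1* was at 69.9 to 86.9 CPM in the SB505124 and 47.4 to 58.6 CPM in the TGFβ1 libraries, without overlap, by -0.81 ± 0.09 with and -0.45 ± 0.09 without *Smad4* (adjusted p = 0.000776 and 0.0174).

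*F11r* was higher with TGFβ1 in Smad4-on cells by 0.59 ± 0.18 (edgeR adjusted p = 0.0409) and ranged from 108 to 252 CPM. *Epcam*, an adhesion protein that stabilises claudins, was near the floor, at 0.399 and 2.11 CPM (Smad4 off, then on) under SB505124 and 0.343 and 1.53 CPM under TGFβ1 in B73, and at 0.176, 0.208, 0.548 and 0.153 CPM in B87. It was not called in any comparison, and its SE of 0.80 to 1.06 in the 4 comparisons shows how little 3 to 39 counts could resolve. *Lsr*, which recruits tricellulin, was not called in these 4 comparisons (log2 fold changes of -0.43 to 0.06) but differed between the lines.

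The plaque genes of the tight junction split. *Tjp1* (379 to 636 CPM) had log2 fold changes of -0.32 to -0.09 in the 4 comparisons, none of them called. *Tjp3* (chromosome 10, 81273207 to 81291581, minus strand), the ZO gene that is most restricted to epithelia, was at 9.48 CPM (Smad4 off) and 18.1 CPM (Smad4 on) in B73 under SB505124 and at 3.64 and 1.02 CPM under TGFβ1. In B87 the values were 2.99, 1.62, 1.69 and 0.306 CPM. Both Smad4-on TGFβ1 libraries lay below all others, at 20 and 6 counts. In Smad4-on cells TGFβ1 gave -3.56 ± 0.62 (log2, edgeR adjusted p = 0.00544), and without the B73 Smad4-on TGFβ1 library the value was -3.29 (adjusted p = 0.0658). In Smad4-off cells it was -1.14 ± 0.52 (adjusted p = 0.205), and with *Smad4* on against off under TGFβ1 it was -2.16 ± 0.66 (adjusted p = 0.105, and 0.0116 by DESeq2 with the line). *Cgn* was at 100, 78.5, 101 and 77.3 CPM in B73 and at 59.0, 29.3, 63.1 and 28.3 CPM in B87, lower in the Smad4-on library of each pair. The effect was -0.76 ± 0.21 under TGFβ1 and -0.67 ± 0.21 under SB505124 (adjusted p = 0.0774 and 0.227), and 12.5% of its 75-base stretches also occur in *BC021767*.

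Among desmosome genes, plakophilin 1 differed with both the Smad4 state and the treatment. *Pkp1* (chromosome 1, 135871395 to 135919207, minus strand) was at 4.09 CPM (Smad4 off) and 25.8 CPM (Smad4 on) in B73 under SB505124 and at 25.4 and 84.0 CPM under TGFβ1. In B87 it was at 6.85, 26.5, 31.3 and 69.2 CPM. The lines were close and the groups did not overlap, except that Smad4-on SB505124 and Smad4-off TGFβ1 cells had like levels. With *Smad4* on it was higher by 2.26 ± 0.23 under SB505124 and 1.45 ± 0.20 under TGFβ1 (log2, edgeR adjusted p = 0.00737 and 0.0107). TGFβ1 raised it by 2.37 ± 0.23 in Smad4-off and 1.56 ± 0.20 in Smad4-on cells (adjusted p = 0.00176 and 0.00183). The *Smad4* effects had adjusted p-values of 0.119 and 0.111 with no replicate block. Leaving out the B73 Smad4-on SB505124 library gave 0.0519 for the first, and leaving out a Smad4-off TGFβ1 library of either line or the B73 Smad4-on TGFβ1 library gave 0.0521 to 0.107 for the second. The TGFβ1 calls held whichever library was left out.

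*Pkp2* was at 30.8, 31.8, 39.0 and 61.2 CPM in B73 and at 37.8, 30.2, 45.9 and 74.0 CPM in B87, with the Smad4-on TGFβ1 libraries above all others. TGFβ1 raised it by 1.12 ± 0.12 in Smad4-on cells (log2, edgeR adjusted p = 0.000726), and without the B87 Smad4-on SB505124 library the value was 0.94, under 2-fold. *Smad4* raised it under TGFβ1 by 0.67 ± 0.11 (adjusted p = 0.0202), also under 2-fold. *Jup* was at 133 to 198 CPM in the SB505124 and 240 to 325 CPM in the TGFβ1 libraries, higher by 0.89 ± 0.13 with and 0.67 ± 0.13 without *Smad4* (adjusted p = 0.00252 and 0.0174). *Pkp4* was lower with TGFβ1 in Smad4-on cells by 0.69 on the log2 scale (172 and 137 against 248 and 249 CPM, adjusted p = 0.0074). *Pkp3* (0.663 to 4.38 CPM), *Dsp* (89.0 to 352 CPM), *Dsc2* and *Dsg2* were not called by edgeR in the 4 comparisons. For *Dsc2* with TGFβ1 in Smad4-on cells the log2 fold change was -1.02 ± 0.33, with an adjusted p of 0.0551 by edgeR and 0.0323 by DESeq2 with the line.

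Apart from treatment and *Smad4*, the 2 lines differed in many junction genes. B87 was called lower than B73 in 13 of 33, beside 4.5% of all tested genes, and higher in 2, beside 3.87%. The median difference of the 33 genes was -0.46 on the log2 scale and remained so with *Cldn3* and *Cldn34c1* at their bounds, beside -0.01 over all genes, and 26 of 33 had a value below 0. Lower in B87 were *Cdh1*, *Ocln*, *Marveld2*, *Marveld3*, *Lsr*, *Cgn*, *Tjp3*, *Dsc2*, *Dsg2*, *Cldn3*, *Cldn4*, *Cldn6* and *Cldn23*. Higher in B87 were *Cldn18* and *Cldn34c1*. *Cldn3*, *Cldn4*, *Cldn23*, *Cldn34c1* and *Marveld3* had entered the test through the libraries in which they were higher. Among the 22 genes with at least 10 counts in every library, 5 were called lower in B87 and 0 higher. The line is 1 tumor, so a difference between the lines cannot be told apart from one between any 2 tumors of this model. Summed levels of the 7 ductal markers were 3760 to 5800 CPM in B73 and 1230 to 2010 CPM in B87, and those of the 5 fibroblast markers 2.45 to 36.3 CPM and 25.4 to 65.3 CPM, with *Lum* at 0 and *Dcn* at 3 counts at most. The part of these differences in the junction values was not tested.

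*Cldn18* (chromosome 9, 99689461 to 99717267, minus strand) had 2 to 11 counts in the B73 libraries and 3930 to 8582 in the B87 libraries, or 0.0857 to 0.594 CPM against 196 to 357 CPM. Its log2 difference was 9.46 ± 0.16 (edgeR adjusted p = 1.23e-06). *Cldn3* had 10 to 26 counts in B73 and none in B87, at least 6.45-fold higher in B73 against the floor (adjusted p = 0.00873). *Cldn34c1* had 30 to 45 counts in B87 and none in B73, at least 11.3-fold higher in B87 (adjusted p = 0.00436), with 10.6% of its 75-base stretches shared with *Cldn34c2*. The claudins thus held both the genes higher in B87 and 4 of those lower in it.

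The desmosomal cadherins were among the genes most reduced in B87. *Dsg2* was at 20, 47.0, 11.7 and 25.7 CPM in B73 (Smad4 off and on under SB505124, then under TGFβ1) and at 1.89, 1.71, 1.44 and 0.561 CPM in B87, a log2 difference of -4.11 ± 0.37 (edgeR adjusted p = 0.000608). *Dsc2* was at 12.4, 39.1, 11.1 and 21.5 CPM against 1.76, 2.62, 0.946 and 0.867 CPM (-3.69 ± 0.26, adjusted p = 0.000256). Further differences were -4.62 ± 0.19 for *Ocln*, -2.88 ± 0.23 for *Cldn6*, -2.54 ± 0.36 for *Lsr* and -2.31 ± 0.35 for *Marveld3* (adjusted p = 3.18e-05 to 0.00495). That of *Cldn4*, -3.81 ± 0.25, rests on the TGFβ1 libraries and was not called by DESeq2 (adjusted p = 0.421). Of the smaller differences, *Marveld2* was at -2.19 ± 0.31, *Tjp3* at -2.07 ± 0.40 and *Cdh1* at -2.06 ± 0.33. *Cdh2*, by contrast, differed by 0.00 ± 0.06 and *Pkp1* by 0.14 ± 0.15. The *Cldn23* difference (-1.64) was not called by DESeq2 with the line (adjusted p = 0.285). In edgeR it was lost when any 1 of 6 libraries was left out (adjusted p = 0.0804 to 0.266), all but the 2 Smad4-off SB505124 ones. *Cgn* (-1.07) dropped below 2-fold without any 1 of the 4 Smad4-on libraries, at -0.94 to -0.95.

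The *Smad4* effect itself differed between the lines for desmoplakin, *Lsr* and *Cldn2*. With *Smad4* on, *Dsp* (chromosome 13, 38151294 to 38198577, plus strand) reached 352 CPM in B73, against 174 with it off, under SB505124, and 308 against 183 CPM under TGFβ1. In B87 it was at 106 against 139 CPM and at 89.0 against 151 CPM, so that the direction was opposite in the lines under both treatments. *Lsr*, in the same order, was at 56.2 against 30.7 CPM and 39.9 against 29.8 CPM in B73, but at 4.74 against 9.62 CPM and 3.72 against 9.17 CPM in B87. The test of the difference (B87 minus B73, over both treatments) gave -1.46 ± 0.11 for *Dsp* and -1.81 ± 0.16 for *Lsr* (log2, edgeR adjusted p = 0.0176 and 0.0187). For *Cldn2*, which fell in both lines, it gave -1.19 ± 0.16 (adjusted p = 0.0457). The *Dsp* and *Lsr* calls held whichever library was left out. The *Cldn2* call was lost without any 1 of 5 libraries, which were the 4 under SB505124 and the B73 Smad4-off TGFβ1 one (-0.93 to -1.19, adjusted p = 0.0509 to 0.0675). Of *Lsr* exon bases, 44.7% lie opposite *Gm4673*.

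These were 3 of 33 genes, beside 0.196% of all genes called in that direction. None of the 3 was called by glmTreat, which tests against the 2-fold threshold. Of the 33 genes, none was called in the other direction, also beside 0.196%, none had an unadjusted p under 0.05 there, and DESeq2 with the line called none there. Of the 33 values, 28 were below 0, with a median of -0.26 beside -0.01 over all genes. Other values were -1.79 ± 0.32 for *Dsg2* (edgeR adjusted p = 0.0952) and -1.52 ± 0.24 for *Cdh1* (0.0678), and DESeq2 with the line gave 0.0128 and 1.82e-06 for these genes. A difference of the TGFβ1 effect between the lines was called by edgeR for none of the 33 genes, beside 0% of all genes. Of the 33, 3 had an unadjusted p under 0.05, and DESeq2 with the line called none.

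**Figure D5:**
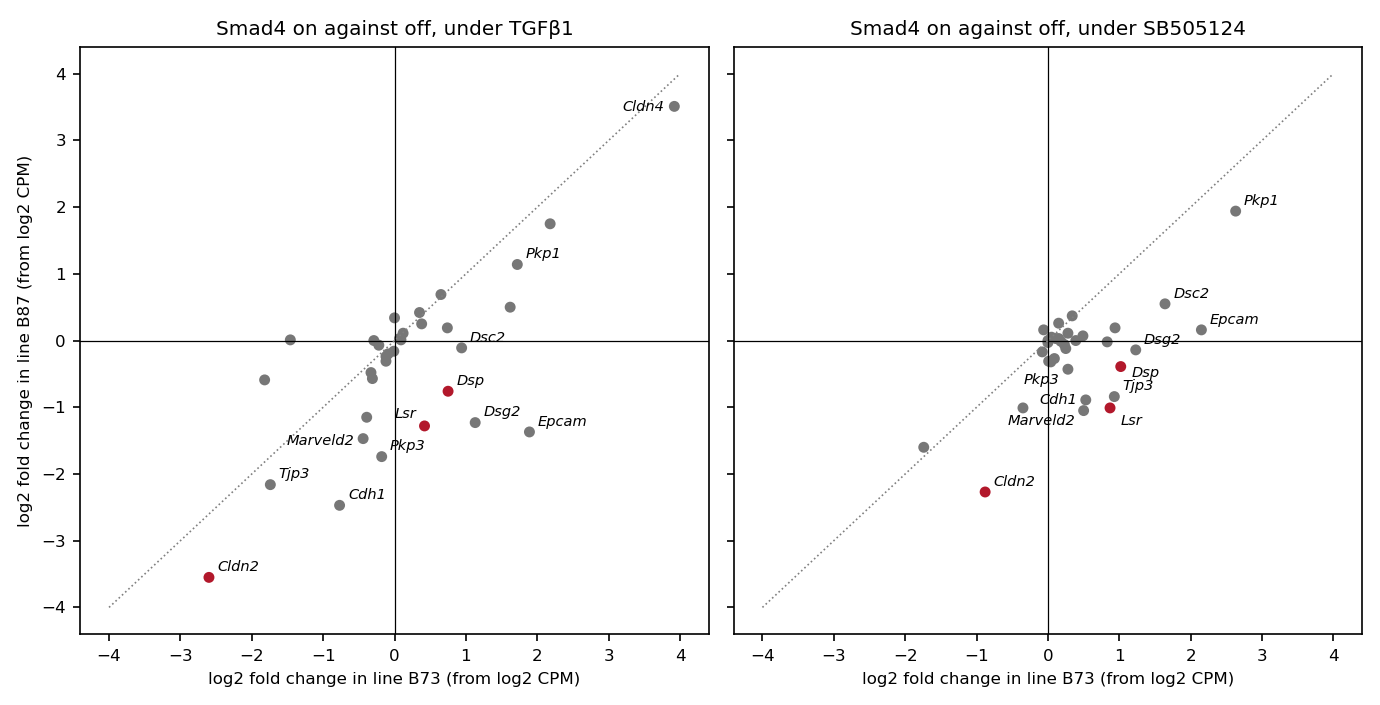
*Smad4* effect in B87 (y axis) against that in B73 (x axis), as log2 fold changes from log2 CPM, for the 33 genes under TGFβ1 (left) and SB505124 (right), with a dotted line of equal effects. Red marks *Dsp*, *Lsr* and *Cldn2*, whose effects were called different between the lines. *Dsp* and *Lsr* lie to the lower right, up in B73 and down in B87, in both panels.

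Further genes of the junctions were read from a list of 49 polarity, scaffold and adhesion genes outside the 66, of which 45 were tested. With TGFβ1 in Smad4-on cells 4 were called higher and 7 lower, beside 5.62% and 8.31% of all tested genes, with a median log2 fold change of 0.06 beside -0.02 over all genes. *Ppl* (periplakin, a desmosomal linker) went from 215 and 175 CPM to 31.5 and 13.2 CPM in B73 and B87, or -3.18 ± 0.35 on the log2 scale (adjusted p = 0.00089 by edgeR). *Crb3*, an apical polarity protein, went from 8.59 and 3.37 CPM to 0.612 and 0.510 CPM (-3.31 ± 0.33, adjusted p = 0.000605). *Cdh6*, a cadherin of kidney and other embryonic epithelia, went the other way, from 8 and 3.99 CPM to 99.2 and 40.6 CPM (3.52 ± 0.47, adjusted p = 0.00191). *Jam2* rose from 23 and 13.3 CPM to 82.6 and 97.1 CPM (2.33 ± 0.24, adjusted p = 0.000712). The remaining calls were *Cdh5* and *Amotl2* (higher) and *Ildr1*, *Ildr2*, *Evpl*, *Ctnnal1* and *Magi3* (lower). *Cdh5* is also an endothelial marker. The 4 endothelial markers summed to 0.702 to 5.18 CPM under SB505124 and 3.42 to 26.1 CPM under TGFβ1, with *Pecam1* at 5 counts or fewer in every library, and their part in these values was not tested. With *Smad4* on against off under TGFβ1, *Cdh6* and *Jam2* were called higher, beside 1.31% of all genes, and *Ppl* and *Crb3* lower, beside 1.8%, and under SB505124 none of the 45 was called by edgeR.

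Of 21 transcription factors and splicing factors known to set epithelial junction genes, 17 were tested. In Smad4-on cells TGFβ1 raised *Snai1*, a repressor of *Cdh1*, and lowered *Klf4*, *Elf3*, *Twist2*, *Ehf*, *Hnf4a*, *Foxa2* and *Grhl3*. These were 1 of 17 higher and 7 lower, beside 5.62% and 8.31% of all tested genes, and the list median was -0.93 on the log2 scale beside -0.02 over all genes. The list holds EMT repressors such as *Snai1* and *Zeb1* beside epithelial factors such as *Grhl3*, so its median mixes both. *Ehf* (0.865 to 0.051 CPM in B73, 0.0832 to 0 in B87) and *Grhl3* (0.54 to 0.051 and 0.79 to 0) were near the floor. *Klf4* went from 278 to 45.4 CPM in B73 but from 165 to 120 CPM in B87. *Snai1* reached 15.1 CPM in B73 against 0.811 with SB505124, and 41.8 against 16.7 CPM in B87 (log2 fold change 2.28 ± 0.56, edgeR adjusted p = 0.0211), and it was higher in B87 in every group. *Hnf4a* went from 292 to 41.5 CPM and from 152 to 22.3 CPM (-2.79 ± 0.30, adjusted p = 0.000761). *Elf3* went from 38.0 to 6.94 CPM and from 7.45 to 0.510 CPM (-2.70 ± 0.50, adjusted p = 0.00686). *Zeb1* rose by 0.49 ± 0.08 (adjusted p = 0.00416), under 2-fold, and *Snai2*, *Zeb2* and *Twist1* had adjusted p-values of 0.16 to 0.562. None of the 17 was called by edgeR with *Smad4* on against off under either treatment.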

How the data were processed

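RNA-seq was done on 8 libraries of 2 PDAC lines. As described in the study's methods and processing notes, the authors made stranded poly(A) libraries, sequenced single-end reads of 75 bases, trimmed them with Trimmomatic 0.36, aligned them to GRCm38 with STAR 2.5.3a and counted them per gene with featureCounts 1.6.3. The authors deposited raw counts per Ensembl gene, 1 column per library and none pooled, with 0 columns left unmapped. Settings for strand and for multiply aligned reads were not given in the sources used here, so overlapping and near-identical genes are less certain. The deposited table also gives a transcript length, used for CPM per kb.

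Counts were tested with edgeR 4.0.16 (R 4.3.3) using TMM and filterByExpr, with groups and line as terms. For the difference of an effect between lines, a product term was added. The SE is approximate, being the absolute log2 value over the root of the F statistic. Log2 CPM used a prior count of 2. The study used DESeq2 and names no covariate, and its thresholds were kept. The line was a term since same-line libraries are 1 cell line under 4 conditions. As a check of this pairing, library deviations from group averages had r = 0.642 to 0.774 (median 0.758) over the 6 group pairs.

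Genes named with all 8 values were *Cdh1*, *Cdh2*, *Epcam*, *Ocln* and those called in a Smad4 or treatment comparison with a mean log2 CPM of at least 0. Genes called between lines were named with values, at most 10 by size, and other detected genes by range. The genes, lists and rules were chosen with earlier results of these data known. Scripts were tested on simulated data. Alternatives were DESeq2 1.42.0 with and without the line, its size factors in edgeR, edgeR with no replicate block, other filters, no fold rule, glmTreat, a fit restricted to the 4 libraries of a contrast, and omission of each library. Floors and intervals cover counting error only. Results of some genes are not reported here and their names are left out of the text and plots, while counts of genes include them.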

Additional observations from a re-analysis of the deposited data

Results flagged for a closer look

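In 3 junction genes the *Smad4* effect differed between lines B73 and B87 by a test of the difference itself (edgeR, B87 minus B73, log2). The difference was -1.46 for *Dsp*, with a rise in B73 and a fall in B87 under both treatments. It was -1.81 for *Lsr*, with the same pattern. It was -1.19 for *Cldn2*, which fell in both lines and more steeply in B87. Each line is 1 tumor with 1 library per condition.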

How the results depend on the processing

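Of 37 calls of junction genes over all comparisons, 11 kept their call under every alternative run for them, 20 kept it whichever library was left out, and none turned direction. DESeq2 size factors kept all 37 and DESeq2 with the line 31 of 36. Counts below are called higher, then lower where it moved, and the cause of each shift was not tested unless the setting tests fewer genes or adds the undetected ones. For *Smad4* under TGFβ1 (3 higher, 1 lower), DESeq2 with the line gave 1 and 2, DESeq2 with no replicate block 1 higher, at least 10 counts in every library 1 higher, glmTreat 1 higher, no filter 4 lower and only the 4 libraries 2 lower. For *Smad4* under SB505124 (1 and 0), DESeq2 with the line gave 2 lower, DESeq2 with no replicate block 1 lower, no filter 2 and 2, and glmTreat 0 higher. For TGFβ1 in Smad4-on cells (5 and 6), DESeq2 with no replicate block gave 3 and 1, at least 10 counts in every library 2 and 2, no fold rule 10 higher and glmTreat 2 and 3. For TGFβ1 in Smad4-off cells (3 and 0), DESeq2 with no replicate block and at least 10 counts in every library gave 1 higher, no filter 2 lower, no fold rule 7 and 1, and only the 4 libraries 1 lower. With no filter the difference of the *Smad4* effect between treatments gave 2 lower. With at least 10 counts in every library, B87 against B73 gave 0 higher and 5 lower. The *Smad4* effect between lines (3 lower) gave 5 in DESeq2 with the line, 9 with no filter and 0 with glmTreat.

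The pairing by line decided many calls. In edgeR with no replicate block, *Smad4* under TGFβ1 gave 0 higher and 0 lower, *Smad4* under SB505124 gave 0 higher, TGFβ1 in Smad4-on cells gave 2 higher and 0 lower, and TGFβ1 in Smad4-off cells gave 1 higher. The *Cdh1* value for *Smad4* under SB505124 (-0.23) turned to 0.21 in edgeR and 0.22 in DESeq2 with no replicate block, and to 0.46 and 0.11 without the B87 Smad4-off or Smad4-on SB505124 library (range over all omissions -0.81 to 0.46). Leaving out 1 library at a time gave ranges of 0 to 3 higher and 1 to 2 lower for *Smad4* under TGFβ1, 0 to 1 and 0 to 1 under SB505124, 4 to 5 and 1 to 8 for TGFβ1 in Smad4-on cells, 1 to 3 and 0 to 1 in Smad4-off cells, 2 and 11 to 14 for the lines, and 2 to 4 lower for the *Smad4* effect between lines.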
